A study of Mus musculus with 12 samples.

Results

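The neutrophil-attracting CXC chemokines and their receptors were followed in mouse tumours 1 day after an intravenous injection of Salmonella. Its members were picked by gene symbol, with earlier results of these libraries known, and are 7 of 18609 listed genes: the ligands Cxcl1, Cxcl2, Cxcl3, Cxcl5 and Ppbp and the receptors Cxcr1 and Cxcr2. RNA was sequenced in 12 libraries from tumours labelled MC38, a mouse colon cancer line, in 4 groups of 3 libraries. Hosts were WT C57BL/6 mice or C57BL/6 mice with TLR4 knocked out, called knockout hosts here, and each genotype received PBS or Salmonella intravenously 1 day before the tumour was taken. TLR4 is the receptor for the lipopolysaccharide of Gram-negative bacteria, and whether the MC38 cells themselves carry it is not stated. The titles name the libraries of each group F-1, M-1 and M-2 without explaining these labels. Whether the libraries within 1 group are from different mice is not stated either, so p-values measure only the spread between these libraries, which may be technical.

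The ligands carry a glutamate-leucine-arginine (ELR) motif before the CXC cysteines, and they draw neutrophils from blood into tissue through the G protein-coupled receptor CXCR2. CXCR1 is the related receptor encoded beside it. Transcription of Cxcl1, Cxcl2 and Cxcl3 is a textbook target of NF-kB, which TLR4, the interleukin-1 receptor and the tumour necrosis factor receptor all activate, while Ppbp is best known as a platelet alpha-granule product. In the tumour, such ligands can come from cancer cells, stroma, macrophages and neutrophils themselves.

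Levels are given as deposited, in FPKM (fragments scaled by the gene's length and by the library's size). Libraries held 30512178 to 38764537 fragments on listed genes, and a count of 0 allows up to 3 fragments, which corresponded to 0.0248 to 0.0315 FPKM for Cxcr2 and 0.0715 to 0.0908 FPKM for Cxcl2; these limits cover counting error only. In wild-type hosts the Salmonella libraries F-1 and M-1 stood apart, with scaling factors of 0.851 and 0.853, against 0.997 to 1.05 in the other 10 libraries. The 6 epithelial markers (Epcam, Krt8, Krt18, Krt19, Cdh1 and Krt20) summed to 0.632 to 4.27 FPKM over all libraries, so defining markers of an epithelial tumour were near absent. Total Tlr4 RNA does not check the knockout label, because it is not known which exons the deletion removed.

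The promoters of Cxcl1, Cxcl2, Cxcl3 and Ppbp are shown first, because these genes lie in 1 cluster on chromosome 5 and the first 3 share a sequence element. The RefSeq promoter table (GRCm38.p6) held 6 of the 7 genes, without Cxcl5, and the build of the deposited values is not known. The 100 bases just before each annotated start are printed 5′ to 3′ on the gene's strand, which is the plus strand for all 4. They are chr5:90891145-90891244 for Cxcl1, chr5:90903799-90903898 for Cxcl2, chr5:90786001-90786100 for Cxcl3 and chr5:90768418-90768517 for Ppbp. Capitals mark matches to GGNNNTTCC, a form of the NF-kB site, or to TATAAA, the TATA box, on either strand.
Cxcl1: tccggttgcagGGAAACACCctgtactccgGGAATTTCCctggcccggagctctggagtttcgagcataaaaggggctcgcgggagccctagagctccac
Cxcl2: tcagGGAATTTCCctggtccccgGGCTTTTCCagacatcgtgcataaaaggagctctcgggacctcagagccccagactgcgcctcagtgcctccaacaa
Cxcl3: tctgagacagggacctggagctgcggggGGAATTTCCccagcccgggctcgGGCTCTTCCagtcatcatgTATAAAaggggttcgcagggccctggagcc
Ppbp: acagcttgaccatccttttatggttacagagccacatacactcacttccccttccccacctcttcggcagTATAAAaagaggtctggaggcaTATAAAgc

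The run GGGAATTTCCC was the longest that the 250 bases before the starts of Cxcl1, Cxcl2 and Cxcl3 had in common. It was 11 bases long and began 71, 97 and 73 bases before the start. The run stood in 11 of 27025 RefSeq promoters of the same length (0.0407%). The shorter form GGNNNTTCC stood in 15.6% of them, and each of these 3 genes held it at 2 positions. Neither Ppbp, Cxcr1 nor Cxcr2 held GGNNNTTCC in this window. TATAAA, present in 13% of promoters, stood at 30 to 25 bases before the start in both Cxcl3 and Ppbp. TGANTCA, a form of the AP-1 site present in 6.87% of promoters, was matched in Ppbp from 204 to 198 bases before the start, outside the stretch printed. TTGCNNAA, a form of the C/EBP site present in 9.55%, had no match in the 6 windows, and Cxcr1 and Cxcr2 held none of the 4 motifs. A match describes letters in a window and is not a shown binding site.

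Cxcl1 was the most abundant ligand under PBS, when all members were low. In wild-type hosts under PBS it measured 3.75, 3.54 and 5.05 FPKM in F-1, M-1 and M-2, and in knockout hosts 5.31, 5.53 and 5.63 FPKM. After Salmonella it reached 435, 247 and 104 FPKM in wild-type hosts and 80.5, 39.2 and 47.7 FPKM in knockout hosts. Thus all 6 Salmonella libraries lay above all 6 PBS libraries, and the lowest wild-type Salmonella library lay above the highest knockout one by a ratio of 1.29.

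Cxcl2 encodes a ligand made in quantity by activated macrophages and neutrophils. Under PBS it stood at 2.47, 0.586 and 1.17 FPKM in wild-type hosts and at 0.502, 0.769 and 0.127 FPKM in knockout hosts. After Salmonella the wild-type libraries held 286, 1005 and 133 FPKM and the knockout libraries 47.0, 38.4 and 81.8 FPKM. The groups under PBS overlapped, those under Salmonella did not, and wild-type M-1 held more Cxcl2 than the other 5 Salmonella libraries together.

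Cxcl3 went from almost no fragments to one of the higher values of the family. Under PBS the wild-type libraries held 0.210, 0 and 0.397 FPKM (8, 0 and 15 fragments) and the knockout libraries 0, 0.256 and 0.0270 FPKM (0, 10 and 1 fragments). After Salmonella Cxcl3 measured 172, 621 and 84.9 FPKM in wild-type hosts and 25.3, 18.2 and 21.5 FPKM in knockout hosts. The lowest wild-type Salmonella library lay 3.36 times above the highest knockout one, the widest such gap among the 6 genes tested below. As for Cxcl2, the highest library was wild-type M-1.

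Cxcl5, a ligand made mainly by epithelial and stromal cells, followed the library order of Cxcl1 more than that of Cxcl2. It stood at 0.758, 0.351 and 0.602 FPKM in wild-type and 0.875, 0.236 and 0.447 FPKM in knockout hosts under PBS. After Salmonella it measured 101, 78.2 and 31.6 FPKM in wild-type hosts and 14.5, 7.23 and 10.04 FPKM in knockout hosts. Both Cxcl1 and Cxcl5 were highest in wild-type F-1 and lowest of the wild-type Salmonella libraries in M-2.

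Ppbp, the precursor of the platelet chemokine CXCL7, stayed the lowest of the ligands after Salmonella. Under PBS it held at most 8 fragments in a library, at 0.197, 0.0488 and 0 FPKM in wild-type and 0, 0.0240 and 0.127 FPKM in knockout hosts. After Salmonella the wild-type libraries measured 1.63, 5.72 and 6.03 FPKM and the knockout libraries 0.715, 1.05 and 1.05 FPKM. Its order among wild-type Salmonella libraries was the reverse of that of Cxcl1: F-1 was the lowest and M-2 the highest.

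Of the receptors, Cxcr2 was barely detected under PBS and clearly present after Salmonella. It measured 0.0514, 0.00847 and 0.0863 FPKM (6, 1 and 10 fragments) in wild-type PBS libraries and 0.00968, 0.0750 and 0.0967 FPKM (1, 9 and 11 fragments) in knockout PBS libraries. After Salmonella it stood at 16.4, 25.5 and 9.06 FPKM in wild-type hosts and 3.72, 2.17 and 4.67 FPKM in knockout hosts. The lowest wild-type library lay above the highest knockout library by a ratio of 1.94.

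Cxcr1 had no fragment in any of the 6 PBS libraries. After Salmonella it held 1, 20 and 7 fragments in wild-type hosts (0.0221, 0.484 and 0.137 FPKM) and 1, 6 and 8 fragments in knockout hosts (0.0197, 0.114 and 0.160 FPKM). Against the limit of 3 fragments over a PBS group, Cxcr1 after Salmonella was 10.3-fold higher in wild-type hosts (28 fragments in all, 20 of them in M-1). In knockout hosts it was 4.77-fold higher (15 fragments). These ratios allow for counting error on the PBS side only, not in the few Salmonella fragments, so they are not lower bounds. The genotypes overlapped. Cxcr1 did not reach 0.5 FPKM in 3 libraries, so 6 of the 7 genes were tested. With no filter it passed in neither host: the log2 difference by limma was 0.50 (SE 0.20, adjusted p = 0.1001) in wild-type and 0.25 (SE 0.20, adjusted p = 0.639) in knockout hosts.

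**Figure D1:**
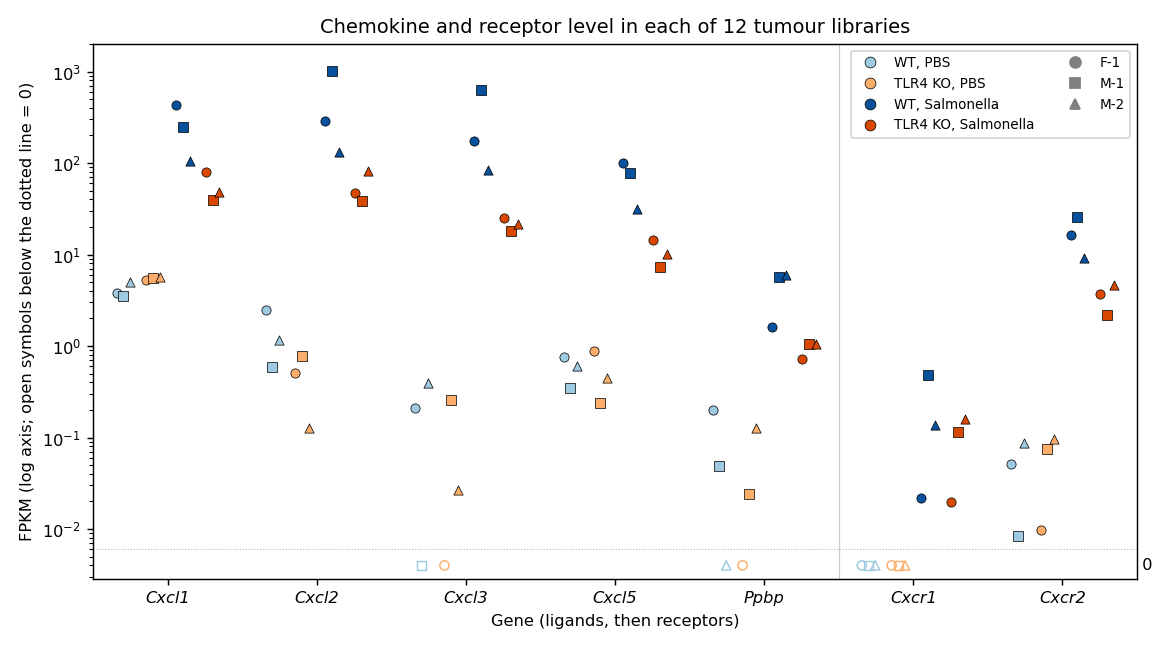
FPKM of each gene (log axis) in all 12 libraries, coloured by group with a symbol for each replicate label; open symbols below the dotted line are values of 0. Every Salmonella library of the 6 tested genes lies above every PBS library, and Cxcr1 stays at or below 0.484 FPKM.

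The first comparison asked which of these genes differed after Salmonella in wild-type hosts. All 6 tested genes rose: Cxcl1, Cxcl2, Cxcl3, Cxcl5, Ppbp and Cxcr2. The background was 18.6% of the 12164 tested genes called higher in this comparison (limma, adjusted p below 0.05 over all tested genes). Cxcl3, Ppbp and Cxcr2 reached the 0.5 FPKM of the filter in no PBS library, so they were tested only through their Salmonella libraries. The filter thus favoured a rise in these genes, and their calls and lack of overlap were partly set by it. Differences are on the scale of log2(FPKM / scaling factor + 0.5), which understates the change of low genes. The ligand Cxcl3 rose by 8.41 (SE 0.61, adjusted p = 0.000121 by limma) and Cxcl2 by 7.76 (SE 0.69, adjusted p = 0.000206). Cxcl5 rose by 6.07 (SE 0.46, adjusted p = 0.000121) and Cxcl1 by 5.81 (SE 0.48, adjusted p = 0.000154). For Cxcr2 the rise was 5.02 (SE 0.36, adjusted p = 8.18e-05), and for Ppbp it was 3.06 (SE 0.33, adjusted p = 0.000326). The median over the 6 genes was 5.94, beside -0.012 over all tested genes. Mean FPKM rose from 4.11 ± 0.817 to 262 ± 166 for Cxcl1 and from 1.41 ± 0.963 to 475 ± 466 for Cxcl2 (SD, n = 3). With voom, which weights recovered fragments by their precision, Cxcl3 did not pass and the other 5 genes did, beside 17.1% of tested genes called higher; the adjusted p of Cxcl3 ranged from 4.66e-06 to 0.0519 over 20 alternatives. All 6 genes passed when any 1 of the 12 libraries was left out, and the groups did not overlap for any of them, as for 15.6% of tested genes. Without the scaling factor the median of all tested genes moved by -0.17 and 1500 were called higher and 3365 lower, against 2259 and 2071 with it, while all 6 members still rose.

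In knockout hosts the same comparison asked whether these genes still differed without TLR4 in the host. Cxcl1, Cxcl2, Cxcl3, Cxcl5 and Cxcr2 rose and Ppbp did not pass, beside a background of 0.444% of tested genes called higher. Cxcl2 rose by 5.85 (SE 0.69, adjusted p = 0.00996 by limma) and Cxcl3 by 5.22 (SE 0.61, adjusted p = 0.00996). Cxcl5 rose by 3.44 (SE 0.46, adjusted p = 0.0160), Cxcl1 by 3.19 (SE 0.48, adjusted p = 0.0250) and Cxcr2 by 2.77 (SE 0.36, adjusted p = 0.0102). Ppbp differed by 1.37 (SE 0.33, adjusted p = 0.0852), with the 3 Salmonella libraries above the 3 PBS libraries. The median over the 6 genes was 3.31, beside 0.003 over all tested genes. These calls depended on single libraries and on the tool. With voom 0 of the 6 genes passed (5 at an unadjusted p under 0.05), beside 0.0575% of tested genes called higher. Leaving out knockout PBS F-1, knockout Salmonella F-1 or knockout Salmonella M-2 each left 0 of 6 called, and leaving out knockout PBS M-1 left 2, Cxcl2 and Cxcl3. The groups did not overlap for any of the 6 genes, as for 13.1% of tested genes. For Cxcl3, Ppbp and Cxcr2 the filter favoured a rise here too, since they passed it only through Salmonella libraries.

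Without bacteria the genotypes were not told apart in these genes. Under PBS 0 of the 6 genes passed in limma, 0 passed in voom, and 0 had an unadjusted p under 0.05 in either, beside a background of 0.0% of tested genes called. The difference between knockout and wild-type hosts was 0.39 for Cxcl1, with a 95% interval from -0.68 to 1.47, and -0.90 for Cxcl2, from -2.44 to 0.63. For Cxcr2 it was 0.03, from -0.76 to 0.82. The 3 knockout libraries lay above the 3 wild-type libraries for Cxcl1, by a ratio of 1.05 between the nearest pair, and the adjusted p was 1. Intervals of this width do not show that the genotypes were alike.

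Under Salmonella, knockout hosts held less of every tested member than wild-type hosts. All 6 were called lower, beside a background of 5.65% of tested genes called lower. Cxcl3 differed by -3.41 on the log2 scale (SE 0.61, adjusted p = 0.0165 by limma). Cxcl2 differed by -2.82 (SE 0.69, adjusted p = 0.0356), Cxcl5 by -2.73 (SE 0.46, adjusted p = 0.0153) and Cxcl1 by -2.23 (SE 0.48, adjusted p = 0.0268). For Cxcr2 the difference was -2.22 (SE 0.36, adjusted p = 0.0140) and for Ppbp -1.76 (SE 0.33, adjusted p = 0.0162). The median over the 6 genes was -2.48, beside 0.015 over all tested genes. In mean FPKM the wild-type level was 13.49 times the knockout level for Cxcl3, 8.51 times for Cxcl2 and 6.62 times for Cxcl5. It was 4.83 times for Cxcr2, 4.76 times for Ppbp and 4.70 times for Cxcl1. Without wild-type Salmonella M-1 the ratio was 5.93 for Cxcl3 and 3.76 for Cxcl2, a check chosen after seeing the data. The groups did not overlap for any of the 6, as for 9.53% of tested genes. Without the scaling factor the median of all tested genes moved by 0.15, with 834 called higher and 591 lower against 412 and 687 with it, and all 6 members were still lower.

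These genotype calls under Salmonella also depended on single libraries and on the fit. A fit on the 6 Salmonella libraries alone called 0 of the 6 genes, beside 0.0672% of tested genes called lower, with all 6 at an adjusted p of 0.098 to 0.140. Without knockout Salmonella M-1 0 genes passed, without knockout Salmonella M-2 only Cxcr2, without wild-type Salmonella F-1 only Ppbp, and without wild-type Salmonella M-1 only Cxcl3 and Cxcr2. With voom 5 of 6 passed, without Ppbp, beside 2.96% of tested genes called lower. The difference itself kept its sign in all of these, and without wild-type Salmonella M-1 it was -1.99 for Cxcl2 and -2.59 for Cxcl3.

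The interaction compared the Salmonella effect between the genotypes directly; it shares its libraries with the comparisons above. The difference of effects, knockout minus wild type, was -3.19 for Cxcl3 (95% interval -5.11 to -1.28), -2.64 for Cxcl5 (-4.08 to -1.19) and -2.62 for Cxcl1 (-4.14 to -1.10). It was -2.25 for Cxcr2 (-3.37 to -1.13), -1.92 for Cxcl2 (-4.09 to 0.25) and -1.69 for Ppbp (-2.72 to -0.67). In limma 0 of the 6 genes passed after adjustment (adjusted p from 0.201 to 0.377), beside 0.0247% of tested genes called. At an unadjusted p under 0.05 there were 5 of 6, all but Cxcl2, beside 14.4% of tested genes. Voom called 0, with 0 at an unadjusted p under 0.05. Without wild-type Salmonella M-2, which held the least Cxcl1, Cxcl2, Cxcl3, Cxcl5 and Cxcr2 of its group, 4 genes passed (Cxcl1, Cxcl3, Cxcl5 and Cxcr2), beside 11.4% of tested genes called lower in that fit. Without wild-type Salmonella F-1 only Ppbp passed. A smaller Salmonella effect in knockout hosts was therefore not shown for any of the 6 genes over all 12 libraries.

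**Figure D2:**
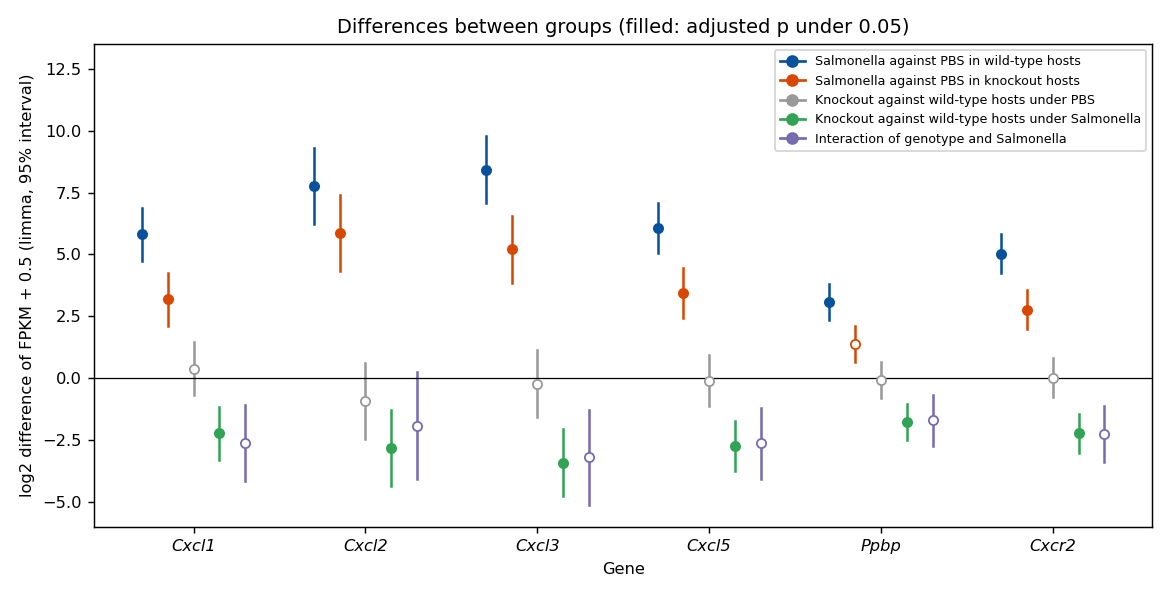
Log2 difference (points) with 95% interval (bars) from limma for the 6 tested genes in each of the 5 comparisons; filled points have an adjusted p under 0.05. The wild-type Salmonella effects run from 3.06 (Ppbp) to 8.41 (Cxcl3), all genotype differences under Salmonella lie below 0, and no interaction point is filled.

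Summed over the 5 ligands, the level per length was 6.38 ± 1.60 FPKM in wild-type and 6.62 ± 0.236 FPKM in knockout hosts under PBS (SD, n = 3). After Salmonella it was 1104 ± 804 FPKM in wild-type hosts, with 995, 1957 and 360 FPKM in F-1, M-1 and M-2. In knockout hosts it was 145 ± 35.3 FPKM, with 168, 104 and 162 FPKM. The sum of both receptors stood at 17.2 ± 8.44 and 3.62 ± 1.28 FPKM after Salmonella in wild-type and knockout hosts. No test was made on these sums.

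The make-up of the ligand pool also differed between treatments. Cxcl1 made up 50.8% to 88.6% of the ligand sum in the 6 PBS libraries and 12.6% to 47.9% in the 6 Salmonella libraries. Cxcl3 made up 0% to 5.50% under PBS and 13.3% to 31.7% after Salmonella, so neither gene's shares overlapped between treatments. Cxcl5 kept a share of 3.46% to 13.1% under PBS and 4.00% to 10.1% after Salmonella. Between the genotypes under Salmonella, the Cxcl2 shares overlapped, at 28.7% to 51.4% in wild-type and 28.0% to 50.5% in knockout hosts. Per unit of Cxcl2, Cxcl3 stood at 0.603, 0.618 and 0.640 in wild-type Salmonella libraries and at 0.539, 0.475 and 0.263 in knockout ones, a ratio chosen after its values were seen. The 2 genes share 126 of the 2159 50-base words of Cxcl2 in GENCODE M21 transcripts (5.84%), so fragments from these stretches could have been split or dropped in the authors' counting.

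**Figure D3:**
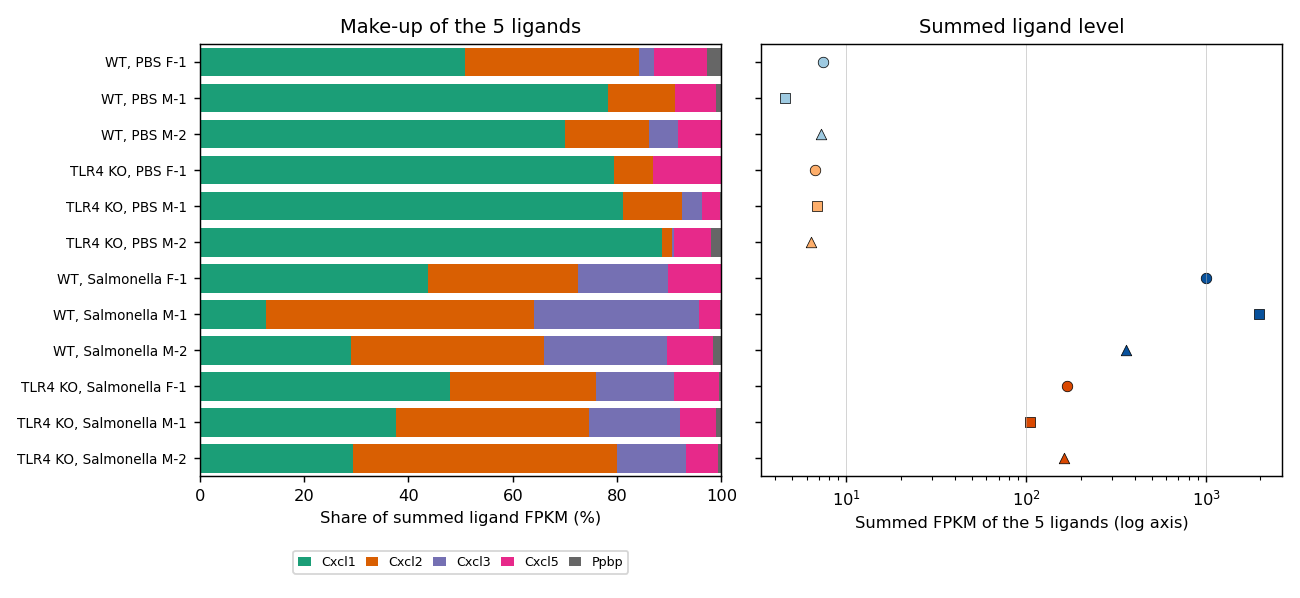
Left, share of each ligand in the summed FPKM of the 5 ligands (%) in each library; right, the summed ligand FPKM (log axis), with the rows in the same order and the symbols for the replicate labels. Cxcl1 holds at least 50.8% in every PBS library and at most 47.9% in every Salmonella library.

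Cxcr2 is a neutrophil gene in most tissues, and the neutrophil markers moved with it. The summed FPKM of 16 markers, among them S100a8, S100a9, Csf3r and Ly6g, ranged from 22.5 to 39.9 over the PBS libraries. It was 2874 to 19191 in wild-type and 567 to 1007 in knockout hosts after Salmonella. Of the 14 tested markers, 14 were called higher after Salmonella in wild-type hosts (13 with voom), 5 in knockout hosts (1 with voom) and 11 lower in knockout than wild-type hosts under Salmonella (6 with voom). Over all tested genes the shares called in these directions were 18.6%, 0.444% and 5.65% with limma and 17.1%, 0.0575% and 2.96% with voom. Any marker that passed the filter only through Salmonella libraries was favoured to rise, so these counts can be partly set by the filter. The interaction passed for 0 of the 14 in either tool, with 12 at an unadjusted p under 0.05 in limma (14.4% of tested genes). In wild-type PBS libraries none of the 16 was at 0 throughout; in knockout PBS libraries Ly6g, Ngp and Mpo were, and Elane was in wild-type Salmonella libraries. In bulk tissue, fewer cells of a type and less RNA per cell cannot be told apart, and the part of neutrophil number in the Cxcr2 and ligand differences was not tested.

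Set against the marker sum, Cxcr2 overlapped between the genotypes. This sum follows its most abundant markers and does not weigh each marker alike. Per 1000 FPKM of neutrophil markers, Cxcr2 stood at 5.07, 1.33 and 3.15 FPKM in wild-type Salmonella F-1, M-1 and M-2 and at 4.28, 3.82 and 4.63 FPKM in the knockout libraries. The low value belonged to wild-type M-1, whose marker sum of 19191 FPKM was the highest of all. The same library held the highest Cxcl2, Cxcl3, Cxcr1 and Cxcr2.

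Ppbp was set beside platelet markers, most of which were too low to test. The 10 platelet markers summed to 9.57 to 14.7 FPKM under PBS, to 127 to 148 FPKM in wild-type and to 28.1 to 40.7 FPKM in knockout hosts after Salmonella. Of the 3 tested, Pf4 and Tmem40 were called higher in wild-type hosts (background 18.6%) and Itga2b was not; in knockout hosts Pf4 was called higher (background 0.444%), and the median of the 3 was -0.009, with Itga2b at -0.01 (adjusted p = 0.984 by limma) and Tmem40 at -0.69 (adjusted p = 0.102). Most of the sum was Pf4, the neighbour of Ppbp and another alpha-granule chemokine, which in wild-type hosts stood at 9.46 ± 0.381 FPKM under PBS and 132 ± 10.1 FPKM after Salmonella (SD, n = 3). Pf4 rose by 3.92 there (SE 0.16, adjusted p = 1.98e-07 by limma) and by 1.78 in knockout hosts (adjusted p = 0.00158). Its interaction passed in limma at -2.13 (adjusted p = 0.00875, and 0.0519 with voom). Of the 3 tested platelet markers 2 passed for the interaction in limma, Pf4 among them, and 0 with voom, beside 0.0247% of tested genes in limma. Per 1000 FPKM of Pf4, Ppbp stood at 13.3, 43.8 and 42.4 FPKM in wild-type and at 18.5, 36.3 and 40.1 FPKM in knockout Salmonella libraries, so the genotypes overlapped. Macrophages also express Pf4, and the part of platelets in these values was not tested.

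**Figure D4:**
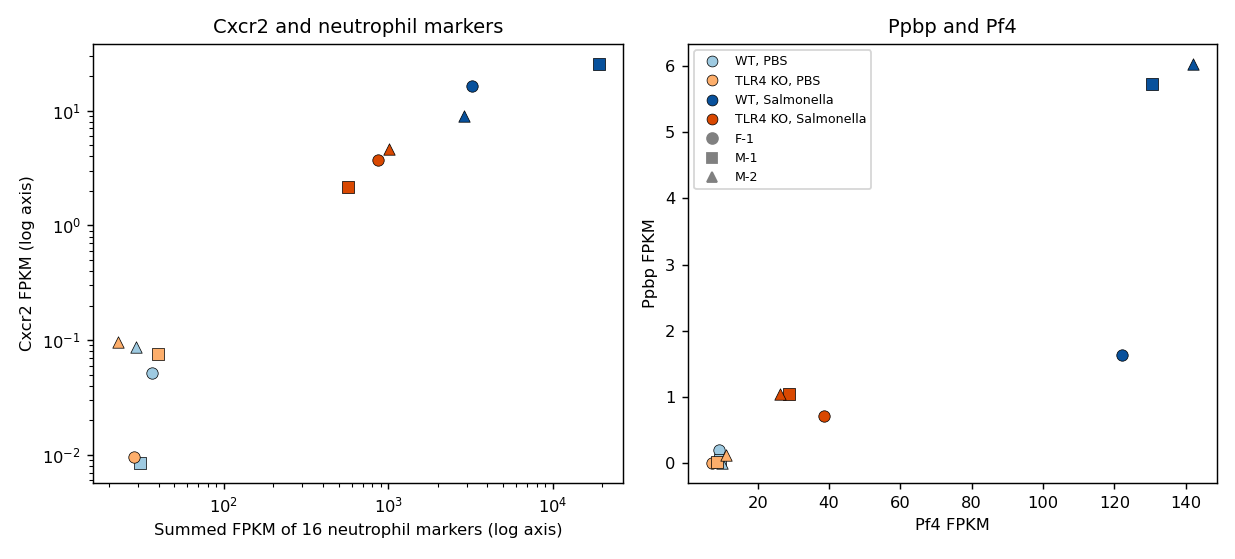
Left, Cxcr2 FPKM against the summed FPKM of 16 neutrophil markers (both log axes); right, Ppbp FPKM against Pf4 FPKM (linear axes), with 1 point per library coloured by group. Wild-type Salmonella libraries lie highest on both axes of each panel, and F-1 has less Ppbp (1.63 FPKM) than M-1 and M-2.

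Markers of other cells moved as well. The 7 endothelial markers summed to 25.8 to 37.8 FPKM under PBS in both hosts, to 58.6 to 89.1 FPKM in wild-type and to 36.7 to 49.1 FPKM in knockout hosts after Salmonella. The 6 fibroblast markers stood at 291 to 478 FPKM under PBS, against 742 to 1183 FPKM and 427 to 571 FPKM. After Salmonella in wild-type hosts limma called 3 of these 6 higher and 1 lower, where 18.6% of tested genes rose and 17.0% fell. The 5 red cell genes ranged from 28.8 to 65.6 FPKM in wild-type and 10.4 to 37.1 FPKM in knockout hosts under PBS. Their median difference between these genotypes was -1.39, and 0 of 5 passed in either tool (3 at an unadjusted p under 0.05 in limma). After Salmonella they ranged from 148 to 396 FPKM in wild-type and 25.1 to 49.8 FPKM in knockout libraries. The 5 skeletal muscle genes stood at 2.48 to 10.2 FPKM under PBS, at 37.4 to 83.9 FPKM in wild-type Salmonella libraries and at 106 FPKM (F-1), 3.98 FPKM (M-1) and 10.1 FPKM (M-2) in knockout Salmonella libraries, where F-1 alone lay above the PBS range. Called higher in wild-type hosts (background 18.6%) were 5 of 6 tested endothelial, 5 of 5 red cell and 3 of 4 skeletal muscle markers. With voom 4, 4 and 1 of them passed (33.0% of tested genes in either direction). Of the same markers 0 passed in knockout hosts in either tool, where limma called 0.444% of tested genes higher. The interaction passed for 0 of them in either tool, beside 0.0247% of tested genes called in limma. The 9 macrophage and monocyte markers overlapped between all groups, from 394 to 1229 FPKM. The 5 T cell markers stood lower after Salmonella than under PBS in wild-type hosts without overlap, at 1.72 to 6.42 against 6.97 to 15.3 FPKM; 1 of 4 tested was called lower (background 17.0%; 0 with voom), with a median of -1.07. In knockout hosts they overlapped, at 1.42 to 4.57 FPKM against 3.44 to 17.0 FPKM, and 0 passed in limma or voom (2 at an unadjusted p under 0.05 in limma). The sums ranged over all 12 libraries from 0.575 to 3.38 FPKM for keratinocyte and from 2.42 to 7.23 FPKM for B cell markers. Their part in the chemokine results was not tested.

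The members resembled one another closely over the 12 libraries, as described by Pearson's r of the log2 values; these libraries share treatment, so r is a description of group differences. Cxcl1 was most like Cxcl5 (r = 0.991), then Cxcr2, Gch1, Gnl2 and Cxcl3. Cxcl2 was most like the neutrophil genes S100a8 (r = 0.995) and S100a9, then Serpinb2, Lcn2 and Cxcl3. The genes nearest to Cxcl3 were Retnlg (r = 0.994), Cxcr2, Serpinb2, Ly6g and S100a8. For Cxcl5 they were Cxcl1, Cxcr2, Hp, Lcn2 and Serpinb2, with r from 0.986 to 0.991, and for Cxcr2 they were Cxcl3 (r = 0.994), Wfdc21, Stfa2l1, Ly6g and Retnlg. Ppbp was less like any gene: Rab15 (r = 0.960), Asprv1, Pf4 (r = 0.952), Retnlg and Mmp8.

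With the group means removed, 2 pairs of ligands stood out. The deviations of Cxcl1 and Cxcl5 had r = 0.884 over the 12 libraries, and those of Cxcl2 and Cxcl3 had r = 0.880. Across these pairs r was lower, from 0.434 (Cxcl1 and Cxcl2) to 0.575 (Cxcl3 and Cxcl5). Cxcr2 was closest to Cxcl3 (r = 0.864) and Cxcl2 (r = 0.831). Ppbp had r = -0.675 with Cxcl1 and -0.480 with Cxcl5. Deviations on this log2 scale were widest in the wild-type Salmonella libraries, so these r values rest largely on that group. All of these are descriptions over libraries that share depth and scaling.

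Genes upstream of the ligands were read from a list of 22 inducers and controls, 20 of them tested. In wild-type hosts 15 rose and 1 fell after Salmonella (15 passed with voom), where 18.6% of tested genes rose and 17.0% fell (33.0% passed in either direction with voom), with a median of 1.32 beside -0.012 over all tested genes. Il1b, an inducer of Cxcl1 and Cxcl2, went from 9.90 ± 0.670 to 380 ± 334 FPKM (log2 4.98, SE 0.61, adjusted p = 0.000902 by limma). Cebpd, a transcription factor of the acute-phase response, rose by 2.40 (SE 0.30, adjusted p = 0.000910). The gene that fell was Il17rc, a subunit of the interleukin-17 receptor (-0.31, adjusted p = 0.0207), and Tnf, Tnfrsf1a, Nfkb1 and Rela did not pass; these 5 were named after their values were seen. In knockout hosts 0 of 20 passed in limma (background 0.444% higher and 0.329% lower) or voom (0.189% in either direction), with 10 at an unadjusted p under 0.05 and a median of 0.41. Under Salmonella 8 were lower and 1 (Il17rc) higher in knockout hosts (4 passed with voom), against 5.65% and 3.39% of tested genes (4.73% with voom), with a median of -1.12. For the interaction 0 passed in either tool, with 13 at an unadjusted p under 0.05 in limma, beside 14.4% of tested genes.

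Genes that act downstream of CXCR2 gave a mixed picture. Of 17 signalling genes, 5 rose and 2 fell in wild-type hosts after Salmonella (7 passed with voom), with a median of 0.21; without the scaling factor 5 rose and 4 fell, with a median of 0.026. The background was 18.6% of tested genes called higher and 17.0% lower (33.0% in either direction with voom), so the share that fell, 2 of 17, was not above it. Fgr, a Src-family kinase of myeloid cells, rose by 1.88 (SE 0.32, adjusted p = 0.00302 by limma), and Arrb2, the beta-arrestin that uncouples the receptor, by 0.49 (SE 0.12, adjusted p = 0.00984). Under Salmonella 4 were lower in knockout hosts (3 with voom): Rac2, Fgr, Lyn and Arrb2. Over all tested genes 5.65% were called lower there (4.73% in either direction with voom). Of these, Rac2 and Lyn were named after their values were seen. In knockout hosts 0 passed in either tool, with 4 at an unadjusted p under 0.05 in limma, beside 0.444% of tested genes called higher and 0.329% lower. The interaction passed for 0 of 17 in either tool, with 7 at an unadjusted p under 0.05 in limma (14.4% of tested genes).

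Other receptors by which neutrophils find their targets rose beside Cxcr2 in wild-type hosts. Of 8 such genes, 7 rose (background 18.6%), with a median of 2.13, and Cxcr4, the marrow retention receptor, did not pass (voom also called 7). Fpr1, the receptor for formylated bacterial peptides, rose from 1.17 ± 0.385 to 73.6 ± 43.1 FPKM (log2 5.50, SE 0.57, adjusted p = 0.000495 by limma), and Ccrl2, a non-signalling chemerin receptor, rose by 3.20 (SE 0.47, adjusted p = 0.00177). In knockout hosts only Fpr1 passed in limma (3.20, adjusted p = 0.0405, and 0 with voom), beside 0.444% of tested genes called higher. Under Salmonella 4 were lower in knockout hosts (2 with voom), against 5.65% of tested genes (2.96% with voom), with a median of -1.82. The interaction passed for 0 of 8 in either tool, with 5 at an unadjusted p under 0.05 in limma (14.4% of tested genes). Of the scavenger receptors, only Ackr3 was tested, and it rose by 1.06 in wild-type hosts (adjusted p = 0.00254 by limma).

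Of 5 genes of granulopoiesis and retention, the 4 tested rose in wild-type hosts (3 with voom), where 18.6% of tested genes rose (17.1% with voom), with a median of 2.34. Csf3, the neutrophil growth factor G-CSF, went from 0.0459 ± 0.0681 to 75.7 ± 71.2 FPKM (log2 6.64, SE 0.76, adjusted p = 0.000734 by limma; voom adjusted p = 0.187). In wild-type PBS libraries Csf3 lay below the 0.5 FPKM of the filter. It passed only through libraries of other groups, so the filter could favour its rise. Cxcl12, the retention chemokine, rose by 2.19 (SE 0.37, adjusted p = 0.00300). In knockout hosts 0 of the 4 passed in either tool (2 at an unadjusted p under 0.05 in limma), beside 0.444% of tested genes called higher in limma. Under Salmonella 3 were lower in knockout than in wild-type hosts (1 with voom), against 5.65% of tested genes (4.73% in either direction with voom). The interaction passed for 0 of the 4 in either tool, with 3 at an unadjusted p under 0.05 in limma (14.4% of tested genes).

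The remaining CXC chemokines differed among themselves. Of 7 tested genes, 4 rose in wild-type hosts (5 passed with voom), beside 18.6% of tested genes called higher (33.0% passing in either direction with voom), with a median of 2.19: Pf4, the B cell chemokine Cxcl13 (5.60, SE 0.62, adjusted p = 0.000658 by limma), Cxcl12 and Cxcl14. The interferon-induced Cxcl9 (-0.07, adjusted p = 0.938) and Cxcl10 (1.14, adjusted p = 0.0517) and Cxcl16 (-0.06, adjusted p = 0.890) did not pass; they and Cxcl14 were named after their values were seen. In knockout hosts only Pf4 passed, beside 0.444% of tested genes called higher in limma. Under Salmonella Pf4, Cxcl12 and Cxcl13 were lower in knockout hosts, both in limma and in voom, beside 5.65% and 2.96% of tested genes called lower. The interaction passed only for Pf4 in limma and for 0 with voom, beside 0.0247% of tested genes called in limma. All of these lists were chosen with earlier results of these libraries known, so their counts are a description.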

How the data were processed

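Each library has 1 table from the authors, with values that act like FPKM (scaled for the length of the gene and the size of the library). TRIzol RNA and the VAHTS Universal V6 library kit were used, per the labels' protocols. The submitters' processing notes name fastp, HISAT2 and HTSeq; versions, roles, build, annotation and strand setting: not given in the sources used here. All 18609 genes (100%) gave whole fragments, within 0.01, from 1 length per gene and 1 total per library, so fragments were recovered.

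Groups came from the genotype and treatment labels. FPKM was divided by a scaling factor, 0.5 was added and log2 was taken; limma 3.58.1 (R 4.3.3; trend, robust) then fitted 1 mean per group to all 12 libraries, leaving 8 residual degrees of freedom. The scaling factor was a trimmed mean of log ratios, without the outer 30% of ratios and 5% of levels on either side. A gene was tested (12164 genes) if 3 or more libraries reached 0.5 FPKM. Two-sided p-values were adjusted by Benjamini-Hochberg over all of them, with 0.05 as threshold. The fit was tested on simulated data. The family members are named in full; for other genes the rule named the 5 most alike per member and the 2 per list whose p was smallest for Salmonella in wild-type hosts. Members and lists were chosen with earlier results of these data known. Alternatives were 2 other pseudocounts, no filter, other scaling or none, only the groups compared, the replicate label as a block, voom on the recovered fragments, and each library left out. The values of 1 listed gene are not reported here.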

Additional observations from a re-analysis of the deposited data

How the results depend on the processing

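Of the 5 counts of called members, those for Salmonella in wild-type hosts (5 to 6) and for genotype under PBS (0) stayed close to the main count in all alternatives run. For Salmonella in knockout hosts the count was 5, and 0 with voom; with 1 library left out it ranged from 0 to 6. For genotype under Salmonella it was 6, and 0 with only the groups compared; with 1 library left out it ranged from 0 to 6. For the interaction it was 0, and with 1 library left out it ranged from 0 to 4. The cause was not tested. Under PBS the genotype difference changed sign when 1 library was left out for Cxcl5 (-0.33 to 0.11), Ppbp (-0.17 to 0.063) and Cxcr2 (-0.022 to 0.094), and passed in no fit. The summed ligand level in knockout PBS libraries was 6.38 FPKM after division by the scaling factor. With the replicate label as a block, the counts were 6, 5, 0, 6 and 0, as without it. Whether libraries with the same label share more than the label is not stated. The 18 correlations of their deviations ran from -0.332 to 0.396, with 7 over 0.1. Those of libraries with different labels ran from -0.377 to 0.410, so the correlations cannot decide it. The depth limits Cxcr1 and the PBS levels of Cxcl3, Ppbp and Cxcr2, which rest on at most 15 fragments per library.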

Other observations

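Some values fall outside the comparisons and were looked up after the results were seen. Il17a and Il17f, cytokines that act on stromal cells, were among the genes too low to test. After Salmonella Il17a stood at 0.739, 1.06 and 0 FPKM in wild-type F-1, M-1 and M-2 and at 0.137, 0.0220 and 0 FPKM in the knockout libraries, and it was listed at 0 in all 6 PBS libraries. Il17f stood at 0.445, 0.707 and 0.0272 FPKM in wild-type Salmonella F-1, M-1 and M-2 and was listed at 0 in the 3 knockout Salmonella libraries.

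Relative to Csf3r, the G-CSF receptor of neutrophils and their precursors, Cxcr2 did not overlap between genotypes after Salmonella. Per 1000 FPKM of Csf3r, Cxcr2 stood at 1058, 783 and 768 FPKM in wild-type hosts and at 465, 532 and 489 FPKM in knockout hosts. Under PBS the ratio was 1.86 to 25.4 in wild-type and 2.21 to 78.6 in knockout hosts, so Csf3r was present there with little Cxcr2. How much Csf3r after Salmonella came from cells without Cxcr2 was not tested, so the ratio is not Cxcr2 per neutrophil. Against the sum of 16 neutrophil markers, given above, the genotypes overlapped, so the groups were apart with one reference and not with the other. Per FPKM of receptor, the ligand sum stood at 60.5, 75.2 and 39.1 FPKM in wild-type and at 44.9, 45.7 and 33.6 FPKM in knockout Salmonella libraries, which overlapped.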
